A study of Homo sapiens with 24 samples.

Results

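Pioneer and lineage transcription factors of the prostate were followed in LNCaP cells: GATA2, GATA3, FOXA1, FOXP1, HOXB13 and GRHL2. These 6 genes were chosen by symbol, whatever their level, among 23946 genes listed in the deposited tables. LNCaP is an androgen-sensitive cell line from a lymph node metastasis of prostate adenocarcinoma. Per the labels, cells of both experiments stood in phenol red-free medium with charcoal-stripped serum, which is low in androgen, before treatment, and poly(A) RNA was sequenced.

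In the ligand experiment, 12 samples were labelled as vehicle (4 samples), enzalutamide at 10 μM and DHT at 10 nM, each given for either 4 h or 24 h (2 samples per ligand and time). DHT (dihydrotestosterone) is the most potent natural androgen, and enzalutamide is an antiandrogen used against prostate cancer. The labels give no treatment time for the vehicle. In the siRNA experiment, another 12 samples fell into 4 groups of 3: cells transfected with a non-targeting siRNA pool (siControl) or a GATA2 siRNA pool (siGATA2), and 72 h later exposed over 24 h to enzalutamide at 25 μM or to its vehicle. Both experiments used 1 cell line, and the knockdown rested on 1 siRNA pool.

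As background, pioneer factors bind their sites in closed chromatin and open it for other factors. FOXA1, a forkhead protein, and GATA2, a zinc-finger protein, occupy many androgen-responsive enhancers in prostate cells. HOXB13 is a homeodomain factor of the prostate lineage, FOXP1 is a forkhead protein that mostly represses transcription, and GRHL2 is a grainyhead factor that maintains epithelial gene expression. GATA3 is a GATA factor best known from T cells and luminal mammary epithelium.

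The ligand libraries held between 38894849 and 59985230 estimated read counts, and the siRNA libraries between about 58800000 and 76800000 mapped reads, a figure derived from the steps between low values. The cells matched their label: all 4 luminal prostate markers reached a mean of 1 RPKM (reads per kilobase of transcript, scaled to sequencing depth) in every siRNA group, while the 3 basal epithelial markers summed to at most 0.113 RPKM and the 2 leukocyte markers to at most 0.00736 RPKM in any library. The summed luminal level was lower with siGATA2 (579.9 to 597 RPKM with vehicle) than with siControl (1130.0 to 1192 RPKM), but the markers did not move together: KLK3 fell by 5.04 on the log2 scale, while KRT8 (0.84), KRT18 (0.56) and FOLH1 (0.43) rose (adjusted p = 1.9e-11, 1.5e-08, 1.2e-07 and 4.2e-05). Of 4 stromal and endothelial markers 1 reached a mean of 1 RPKM, COL1A1, which was higher with siGATA2 in vehicle (0.54 on the log2 scale, adjusted p = 0.000287) and lower after 24 h of DHT (-0.65, adjusted p = 5.1e-05). COL3A1, under 1 RPKM, was lower with siGATA2 in vehicle (-2.35, adjusted p = 5.5e-09), and DCN was at or near 0. The part of these markers in the results on the factors was not tested. The androgen-responsive genes checked the ligands. KLK3, which encodes prostate-specific antigen, rose by 1.27 on the log2 scale after 4 h of DHT and by 3.04 after 24 h, and fell by 1.22 after 24 h of enzalutamide (adjusted p = 3.2e-09, 5.0e-13 and 1.6e-09, edgeR quasi-likelihood test). In these bulk samples, fewer cells carrying an RNA and less of it per cell cannot be told apart.

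The siGATA2 pool held 4 siRNAs. Their target sites in the GATA2 mRNA are shown because the knockdown rests on them, and because the other 5 factors can be searched for the same letters. The capitals mark the 7 target bases that pair with the guide strand's seed (guide bases 2 to 8).
siRNA 1: ucgaggagcugUCAAAGUg
siRNA 2: acuacaagcugCACAAUGu
siRNA 3: gaagagccggcACCUGUUg
siRNA 4: gcccaggccuaGCUACUAu
GATA2 lies on the minus strand of chromosome 3 at 128479427-128493185 (GRCh38, GENCODE 29). All 4 sites are coding: siRNA 1 in exon 6 (128481203-128481221), siRNA 2 across the junction of exons 5 and 6, siRNA 3 in exon 5 (128481916-128481934) and siRNA 4 in exon 3 (128485891-128485909) of GATA2-201. GATA2 was the only gene matched without a mismatch by each of the siRNAs.

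Among the other factors, the closest match was in GATA3, the other GATA gene of the list. SiRNA 2 differed from the GATA3 mRNA at 2 of 19 bases, G11T and G18A, counted from the 5′ end of the GATA2 target. Both sequences are shown with these 2 bases in capitals; the GATA3 site is coding and spans exons 5 and 6 of GATA3-202 on chromosome 10 (8069582-8069598 and 8073739-8073740, plus strand).
GATA2 target of siRNA 2: acuacaagcuGcacaauGu
GATA3 at the same place: acuacaagcuUcacaauAu
Every other pair of a siRNA and a factor differed at 4 or more bases. Seed matches of 7 bases occurred once each in FOXP1-202 (8994 bases long) for siRNAs 1 and 3, in GRHL2-201 (5239 bases) for siRNA 2, and in FOXA1-201 (2862 bases) for siRNA 4, and none was found in HOXB13-201 or GATA3-202. Such a match is a description of the letters, and silencing through it was not tested.

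Per kilobase, the 6 genes spanned a wide range of levels. In siControl cells with vehicle, HOXB13 stood at 143 RPKM ± 6.87 (SD, n = 3) and FOXA1 at 139 RPKM ± 3.89, followed by GATA2 at 82.3 RPKM ± 4.72 and GRHL2 at 39.5 RPKM ± 0.957. The HOXB13 and FOXA1 libraries overlapped. FOXP1 was far lower at 4.38 RPKM ± 0.166, and GATA3 was very low at 0.0359 RPKM ± 0.00934. Averaged over the 12 siRNA libraries, FOXA1 lay above 98.6% of the 20369 tested genes, HOXB13 above 98.5%, GATA2 above 96.7%, GRHL2 above 89.7%, FOXP1 above 56.4% and GATA3 above 16.0%. In siGATA2 cells FOXA1 and HOXB13 changed places in this order, and the 4 lower genes kept theirs.

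In the ligand experiment 5 of the 6 genes had enough counts to be tested, and GATA3 did not. All 4 comparisons with vehicle share the same 2 vehicle replicates. After 4 h of enzalutamide 3 of the 5 factors changed at an adjusted p below 0.05, with FOXA1 up and GATA2 and HOXB13 down, against 13.6% of all 15555 tested genes (6.94% higher, 6.68% lower). After 24 h of enzalutamide 3 changed, with FOXA1 and FOXP1 up and GATA2 down, against 33.4% of all genes (16.4% higher, 17.0% lower). DHT changed 3 factors after 4 h, with GRHL2 up and GATA2 and HOXB13 down, where 6.77% of all genes were called (4.66% higher, 2.11% lower). After 24 h of DHT 4 factors changed, with GRHL2 up and GATA2, FOXA1 and HOXB13 down, where 50.0% were called (26.9% higher, 23.2% lower).

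The times and ligands were also set against each other. Between 4 h and 24 h of enzalutamide 2 factors rose, FOXP1 and GATA2 (24.6% of all genes called, 11.7% higher and 12.9% lower). Between 4 h and 24 h of DHT 2 fell, FOXA1 and GRHL2 (49.8% called, 26.3% higher and 23.5% lower). DHT against enzalutamide differed for 2 factors at 4 h, GRHL2 higher and FOXA1 lower with DHT (15.8% called, 8.49% higher and 7.28% lower). At 24 h it differed for 4, FOXA1, FOXP1, GATA2 and HOXB13, all lower with DHT (64.9% called, 31.3% higher and 33.6% lower). Under the study's own rule, a change over 2-fold with an unadjusted p below 0.05, none of the 5 passed in any of these 8 comparisons. That rule called 0.752%, 2.89%, 1.2% and 5.86% of all genes for the 4 comparisons with vehicle in the order above, and 2.3%, 4.54%, 1.83% and 11.8% for the other 4.

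**Figure D1:**
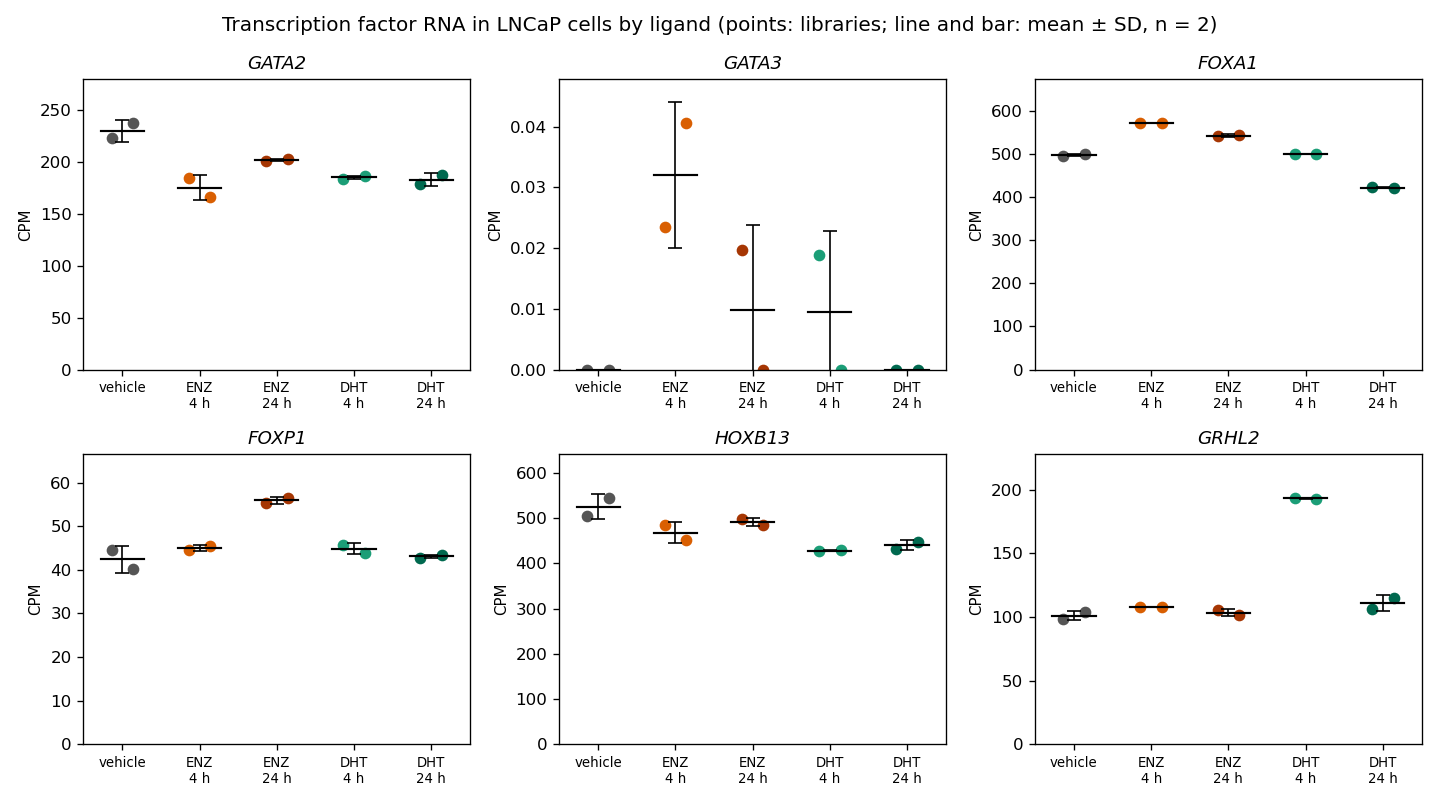
RNA of the 6 factors in the ligand experiment, in CPM (counts scaled to library size, vertical axes from 0), for vehicle, enzalutamide (ENZ) and DHT; points are libraries, lines and bars the mean ± SD (n = 2). GRHL2 at 193 to 194 CPM after 4 h of DHT stands apart from all other conditions, FOXP1 is highest after 24 h of enzalutamide, and GATA3 never exceeds 2 counts.

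GATA2 was lower than vehicle under both ligands and at both times. Its level was 223 and 237 CPM (counts scaled to library size) in the 2 vehicle replicates, 184 and 167 CPM after 4 h of enzalutamide, 201 and 203 CPM after 24 h of enzalutamide, 184 and 186 CPM after 4 h of DHT, and 178 and 187 CPM after 24 h of DHT. No treated library reached the lower vehicle replicate. The log2 fold change was -0.39 ± 0.0477 (SE) after 4 h of enzalutamide and -0.19 ± 0.0474 after 24 h (adjusted p = 0.000198 and 0.0089). With DHT it was -0.31 ± 0.0474 early and -0.33 ± 0.0476 late (adjusted p = 0.000852 and 7.0e-05). The fall at 24 h of enzalutamide was no longer called without vehicle replicate 2 (-0.15, adjusted p = 0.0707).

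Names of the data columns carry 3 prefixes (ZC1, ZC2, ZC3), whose meaning is not given in the sources used here. Both DHT 4 h libraries have ZC1, both enzalutamide 4 h libraries ZC2 and both enzalutamide 24 h libraries ZC3, while vehicle replicate 1 has a column under each. Against the vehicle columns of their own prefix, the GATA2 log2 ratios ran from -0.42 to -0.27 after 4 h of enzalutamide, from -0.15 to -0.14 after 24 h, from -0.37 to -0.25 after 4 h of DHT and from -0.32 to -0.25 after 24 h of DHT. Each of these GATA2 ratios was below 0. They are not independent, since outside ZC1 all of them rest on columns of vehicle replicate 1.

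Time and ligand were also compared directly for GATA2. Between 4 h and 24 h of enzalutamide GATA2 rose by 0.21 ± 0.0477 (adjusted p = 0.0071), while 24 h against 4 h of DHT gave -0.02 with a 95% confidence interval of -0.12 to 0.08. At 4 h DHT and enzalutamide differed by 0.08 (interval -0.02 to 0.18, adjusted p = 0.314), and at 24 h GATA2 was lower with DHT by 0.15 ± 0.0477 on the log2 scale (log2 difference -0.15, adjusted p = 0.0163). The rise with time lost its call with the prefix as a term and every vehicle column as a sample (0.16, adjusted p = 0.143), and also without enzalutamide 4 h replicate 2 (0.13, adjusted p = 0.0566) or 24 h replicate 2 (0.19, adjusted p = 0.0617). The difference at 24 h lost it without either enzalutamide library (adjusted p = 0.0765 and 0.101) or DHT replicate 1 (adjusted p = 0.156), and the difference at 4 h was called without enzalutamide 4 h replicate 1 (0.15, adjusted p = 0.031).

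With siGATA2 in vehicle, 3 of the 6 factors stood below their siControl level: GATA2 (the siRNA target itself), GRHL2 and FOXP1. Of all 20369 genes, 55.6% were called in that comparison (24.2% higher, 31.4% lower). Under enzalutamide the called factors were again GATA2, GRHL2 and FOXP1, all lower with siGATA2, and 54.5% of all genes were called (26.3% higher, 28.1% lower). Enzalutamide changed 3 factors in siControl cells, with GATA2 and FOXP1 up and GRHL2 down, against 42.1% of all genes (17.7% higher, 24.4% lower).

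In siGATA2 cells enzalutamide changed 0 of the 6 factors by limma, where 0.412% of all genes were called (0.221% higher, 0.191% lower), and 1 factor, GATA2, had an unadjusted p below 0.05. The effect of enzalutamide differed between siGATA2 and siControl cells for 1 factor, GATA2, against 25.8% of all genes (15.0% higher, 10.8% lower). FOXA1, HOXB13 and GATA3 passed in none of these 5 comparisons. Over the 5 comparisons 1 call met the study's 2-fold rule, GATA2 in siGATA2 against siControl cells under enzalutamide. That rule called 5.78% of all genes there, 5.64% for siGATA2 in vehicle, 2.13% and 0.191% for enzalutamide in siControl and siGATA2 cells, and 1.81% for the interaction.

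**Figure D2:**
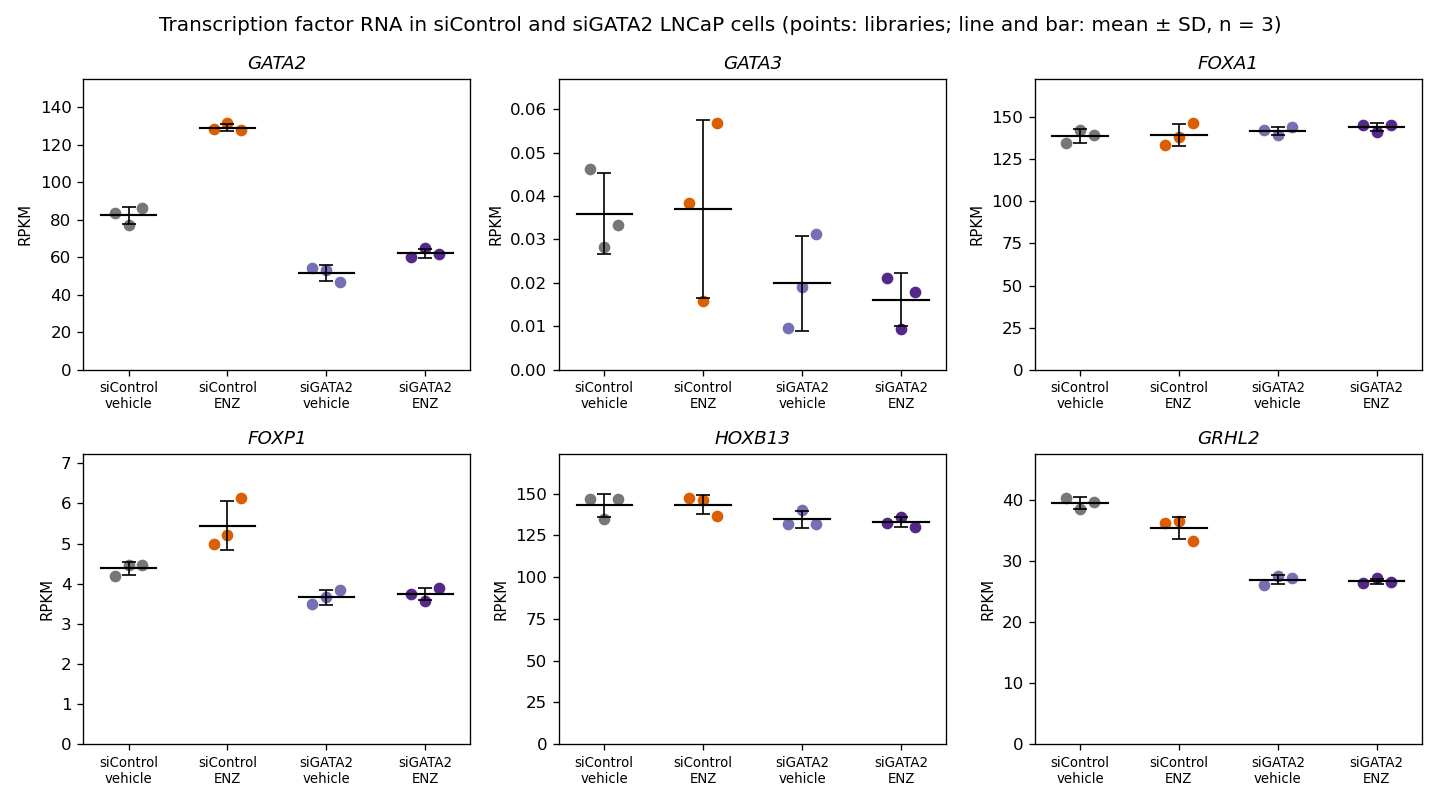
RNA of the 6 factors in the siRNA experiment, in RPKM (vertical axes from 0), for siControl and siGATA2 cells with vehicle or 25 μM enzalutamide (ENZ); points are libraries, lines and bars the mean ± SD (n = 3). GATA2 and GRHL2 are lower in all 6 siGATA2 than in all 6 siControl libraries, whereas FOXA1 lies between 133 and 146 RPKM in all 12.

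GATA2, the targeted gene, checks the labels. It was measured at 83.8, 77.0 and 86.1 RPKM in the siControl vehicle libraries and at 54.3, 53.4 and 46.6 RPKM in the siGATA2 vehicle libraries. Under enzalutamide it was at 128, 132 and 128 RPKM with siControl and at 60.1, 64.7 and 61.5 RPKM with siGATA2. The 4 groups did not overlap, and their order was siControl with enzalutamide, siControl with vehicle, siGATA2 with enzalutamide, siGATA2 with vehicle. Enzalutamide and siGATA2 thus separated the GATA2 libraries completely.

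On the scale of log2(RPKM + 0.1), siGATA2 changed GATA2 by -0.68 ± 0.0594 (SE) in vehicle and by -1.06 ± 0.0594 under enzalutamide (adjusted p = 3.1e-06 and 1.1e-07, limma). Enzalutamide raised GATA2 by 0.65 ± 0.0594 in siControl cells (adjusted p = 1.2e-05). In siGATA2 cells the difference was 0.27 ± 0.0594 (95% confidence interval 0.14 to 0.41), with an unadjusted p of 0.000912 in that fit and an adjusted p of 0.0995. When genes under a mean of 1 RPKM were left out, this difference in siGATA2 cells was called (adjusted p = 0.0324). The response to enzalutamide was smaller in siGATA2 cells by an interaction of -0.38 ± 0.084 (adjusted p = 0.00823).

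Enzalutamide thus stood with lower GATA2 at 10 μM in untransfected cells (log2 fold change -0.19 after 24 h, CPM) and with higher GATA2 at 25 μM in siControl cells (0.65 after 24 h, RPKM). The experiments differ in dose, transfection, sequencing instrument and unit, so the 2 values stand side by side and were not compared.

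The antisense gene at the GATA2 locus moved the other way with siGATA2. GATA2-AS1, described here after its values were seen, starts within GATA2 on the plus strand (chromosome 3, 128489212-128502348) and shares 3974 bases with it, of which 0 are exonic in both genes. It was at 16.6, 16.6 and 17.1 RPKM in siControl and 26.9, 26.8 and 28.4 RPKM in siGATA2 cells with vehicle. Under enzalutamide it was at 17.5, 17.1 and 17.3 RPKM with siControl and at 27.4, 27.5 and 26.6 RPKM with siGATA2. The log2 difference was 0.70 ± 0.0265 in vehicle and 0.65 ± 0.0265 under enzalutamide (adjusted p = 6.3e-09 and 1.1e-08), and siControl and siGATA2 libraries did not overlap. Enzalutamide left a difference of 0.04 in siControl cells (interval -0.02 to 0.10).

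With the ligands GATA2-AS1 was lower than vehicle after 24 h of DHT (-0.27 ± 0.0504, adjusted p = 0.000632), while 4 h of enzalutamide gave 0.01 (interval -0.10 to 0.12). The library kit keeps strand, but the counting is not stated to use it, so reads from GATA2 introns and GATA2-AS1 exons may not be told apart.

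GATA3 was barely transcribed in any condition. In the ligand libraries it had 1 and 2 estimated counts after 4 h of enzalutamide, 1 and 0 after 24 h, 1 and 0 after 4 h of DHT, and 0 and 0 after 24 h of DHT. The gene is not listed in the vehicle table and was set to 0 there. In the siRNA libraries its values matched whole read numbers of 10, 6 and 6 (siControl with vehicle), 8, 3 and 13 (siControl with enzalutamide), 2, 4 and 7 (siGATA2 with vehicle) and 5, 2 and 4 (siGATA2 with enzalutamide).

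Over 3 libraries each, these GATA3 reads summed to 22 and 24 in siControl and to 13 and 11 in siGATA2 cells, and the single libraries of the groups overlapped. The log2(RPKM + 0.1) difference of siGATA2 from siControl was -0.18 ± 0.109 in vehicle and -0.23 ± 0.109 under enzalutamide (adjusted p = 0.186 and 0.102), a scale that understates changes at such low values. The second was called without siControl enzalutamide replicate 2 (-0.34, adjusted p = 0.0126). On this scale, no change of GATA3 was called in the full set of libraries. Its mRNA came closest to a target site among the other 5 factors. The lower read sums with siGATA2 were not tested as counts.

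FOXA1 rose with enzalutamide and fell late with DHT in the ligand experiment. It was at 495 and 499 CPM in vehicle, 570.3 and 570.4 CPM after 4 h of enzalutamide, 540.0 and 544 CPM after 24 h of enzalutamide, 499 and 499.7 CPM after 4 h of DHT, and 422 and 421 CPM after 24 h of DHT. Only vehicle and 4 h of DHT overlapped. The log2 fold changes from vehicle were 0.20 ± 0.0273 after the shorter and 0.13 ± 0.0273 after the longer enzalutamide treatment (adjusted p = 0.00049 and 0.0033), 0.01 at 4 h of DHT (interval -0.05 to 0.07), and -0.24 ± 0.0274 at 24 h of DHT (adjusted p = 9.9e-06). The 24 h value with enzalutamide was not called without enzalutamide 24 h replicate 2 (0.11, adjusted p = 0.062).

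The 2 ligands differed for FOXA1 at both times, with DHT below enzalutamide (log2 difference -0.19 ± 0.0273 early and -0.36 ± 0.0274 late, adjusted p = 0.000285 and 7.8e-08). FOXA1 was also lower at 24 h than at 4 h of DHT (-0.24 ± 0.0274, adjusted p = 8.2e-06). Between 24 h and 4 h of enzalutamide the difference was -0.07 (adjusted p = 0.0688), which was called without either DHT 24 h library (adjusted p = 0.0456 and 0.0452). With all libraries, it was called by DESeq2 (adjusted p = 0.0367), with its scaling factors (0.0385) and with every vehicle column as a sample (0.0282). Within a prefix the log2 ratios to vehicle were 0.21 at 4 h of enzalutamide, 0.13 to 0.14 at 24 h, 0.00 to 0.01 at 4 h of DHT and -0.23 to -0.22 at 24 h.

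In the siRNA experiment FOXA1 hardly moved: its 4 group means lay between 139 and 144 RPKM, a ratio of 1.04, with SDs of 2.28 to 6.58 RPKM. Neither enzalutamide nor siGATA2 passed the test. The log2 difference was 0.00 with enzalutamide in siControl cells (interval -0.08 to 0.08), 0.03 with siGATA2 in vehicle (-0.05 to 0.11) and 0.05 with siGATA2 under enzalutamide (-0.03 to 0.13, adjusted p = 0.279). The last was called without siControl enzalutamide replicate 3 (0.09, adjusted p = 0.0491) and after all libraries were scaled to one total (0.12, adjusted p = 0.0313).

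FOXP1 rose with 24 h of enzalutamide in both experiments. In the ligand experiment it was at 44.6 and 40.2 CPM in vehicle and at 55.5 and 56.5 CPM after 24 h of enzalutamide, against 44.6 and 45.6 CPM at 4 h. With DHT it was at 45.7 and 43.9 CPM at 4 h and at 42.8 and 43.4 CPM at 24 h. The 2 libraries at 24 h of enzalutamide stood above all 8 others, which overlapped in part. The log2 fold change was 0.40 ± 0.0516 at 24 h and 0.08 ± 0.0526 at 4 h of enzalutamide (adjusted p = 6.5e-05 and 0.336), and the rise from 4 h to 24 h was 0.31 ± 0.0516 (adjusted p = 0.000705).

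With DHT the FOXP1 differences from vehicle were 0.07 at 4 h (interval -0.04 to 0.19) and 0.02 at 24 h (-0.10 to 0.13), and at 24 h DHT stood below enzalutamide by -0.38 ± 0.0518 (adjusted p = 2.5e-05). Against vehicle of the same prefix the 24 h enzalutamide libraries gave 0.32 and 0.35.

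In siControl cells FOXP1 was at 4.19, 4.48 and 4.47 RPKM with vehicle and at 4.99, 5.21 and 6.14 RPKM with 25 μM enzalutamide. In siGATA2 cells it was at 3.48, 3.67 and 3.85 RPKM with vehicle and at 3.74, 3.58 and 3.88 RPKM with enzalutamide. All siControl libraries were above all siGATA2 libraries, and only the siGATA2 groups overlapped each other. Enzalutamide raised FOXP1 by 0.30 ± 0.0727 in siControl cells (adjusted p = 0.0065) and gave 0.03 in siGATA2 cells (interval -0.14 to 0.19).

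SiGATA2 lowered FOXP1 by -0.25 ± 0.0727 in vehicle and by -0.53 ± 0.0727 under enzalutamide on the log2 scale (adjusted p = 0.0129 and 0.000102). The interaction of -0.28 ± 0.103 did not pass (adjusted p = 0.075). It was called without siControl enzalutamide replicate 1 (-0.34, adjusted p = 0.0366) and when genes under a mean of 1 RPKM were left out (adjusted p = 0.0359).

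HOXB13 was lower with DHT. It was at 506 and 545 CPM in vehicle, 428 and 429 CPM after 4 h of DHT, and 433 and 448 CPM after 24 h of DHT, and neither DHT group overlapped with vehicle. With enzalutamide it was at 485 and 451 CPM at 4 h and at 498 and 485 CPM at 24 h, again below both vehicle replicates. The log2 fold changes were -0.29 ± 0.0421 and -0.25 ± 0.0422 with DHT (adjusted p = 0.000518 and 0.000231) and -0.17 ± 0.0421 and -0.10 ± 0.0421 with enzalutamide (adjusted p = 0.0202 and 0.0991).

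The enzalutamide results for HOXB13 depended on single libraries. At 4 h the call was lost without vehicle replicate 2 (-0.12, adjusted p = 0.16), without enzalutamide replicate 2 (-0.12, adjusted p = 0.114) and with the prefix as a term and every vehicle column as a sample (-0.09, adjusted p = 0.23). At 24 h the difference was called without vehicle replicate 1 (-0.16, adjusted p = 0.0237) and without either enzalutamide 4 h library (adjusted p = 0.0434 and 0.0267). With all libraries, it was called by DESeq2 (adjusted p = 0.039) and with no filter on low counts (adjusted p = 0.0197). Within a prefix, the ratios to vehicle were -0.35 to -0.25 and -0.21 to -0.18 with DHT, and -0.15 to -0.05 and -0.06 to -0.02 with enzalutamide, at 4 h and 24 h.

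DHT against enzalutamide gave -0.13 ± 0.0422 for HOXB13 at 4 h (adjusted p = 0.0592) and -0.16 ± 0.0422 at 24 h (adjusted p = 0.0049). The first was called without enzalutamide 4 h replicate 2 (-0.17, adjusted p = 0.015) and with no filter on low counts (-0.12, adjusted p = 0.0134). The second lost its call without enzalutamide 24 h replicate 1 (-0.13, adjusted p = 0.0678) or DHT 24 h replicate 1 (-0.13, adjusted p = 0.0591). The times differed by 0.07 for enzalutamide and 0.04 for DHT (adjusted p = 0.247 and 0.467).

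In the siRNA experiment HOXB13 ranged from 129.9 to 147.5 RPKM over all 12 libraries, and groups next to each other by mean overlapped. Under enzalutamide, however, HOXB13 was at 129.9 to 136.2 RPKM with siGATA2 and at 136.9 to 147.5 RPKM with siControl, without overlap. Its mean was 143 RPKM ± 6.87 and 143.5 RPKM ± 5.77 in siControl cells with vehicle and enzalutamide, and 135 RPKM ± 5.17 and 133 RPKM ± 3.17 in siGATA2 cells. The siGATA2 differences were -0.09 in vehicle (interval -0.19 to 0.01) and -0.11 under enzalutamide (-0.21 to -0.01, adjusted p = 0.058). The first was called without siControl vehicle replicate 2 (-0.13, adjusted p = 0.0263). The second was called without siControl enzalutamide replicate 3 (-0.14, adjusted p = 0.0244), siControl vehicle replicate 2 (adjusted p = 0.0312) or siGATA2 vehicle replicate 2 (adjusted p = 0.0496), and with genes under 1 RPKM left out (adjusted p = 0.0337).

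GRHL2 showed the largest response to a ligand among the 5 tested factors, a rise after 4 h of DHT that was mostly gone at 24 h. It was at 98.5 and 104 CPM in vehicle, 194 and 193 CPM after 4 h of DHT, and 107 and 115 CPM after 24 h of DHT. With enzalutamide it was at 108 and 108 CPM at 4 h and at 105 and 101 CPM at 24 h. The 2 libraries at 4 h of DHT were far above the other 8, all of which lay between 98.5 and 115 CPM. The log2 fold change was 0.94 ± 0.0432 at 4 h of DHT, or 1.91-fold (adjusted p = 1.1e-08), and 0.13 ± 0.0438 at 24 h (adjusted p = 0.0213).

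The difference between the times of DHT was -0.80 ± 0.043 for GRHL2 (adjusted p = 1.2e-08). At 4 h DHT exceeded enzalutamide by 0.84 ± 0.0431 (adjusted p = 1.9e-08). Enzalutamide itself gave 0.10 at 4 h (interval 0.00 to 0.19, adjusted p = 0.177; 0.16 and called at 0.0492 with the prefix as a term and every vehicle column as a sample) and 0.03 at 24 h (-0.06 to 0.13). At 24 h DHT and enzalutamide differed by 0.10 (adjusted p = 0.0572). With all libraries, this difference was called by DESeq2 (adjusted p = 0.0264), with its scaling factors (0.0236) and with no filter on low counts (0.0471). It was also called with every vehicle column as a sample, without and with the prefix as a term (adjusted p = 0.044 and 0.0212). The same held without any 1 of the vehicle or enzalutamide 4 h libraries (adjusted p = 0.0273 to 0.0416) or DHT 24 h replicate 1 (adjusted p = 0.0119). The small rise at 24 h of DHT was not called without vehicle replicate 1 (0.10, adjusted p = 0.165) or DHT 24 h replicate 2 (0.08, adjusted p = 0.219). Within a prefix, the ratios to vehicle were 0.90 to 0.97 at 4 h and 0.12 to 0.23 at 24 h of DHT.

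In siControl cells GRHL2 was at 40.3, 38.4 and 39.7 RPKM with vehicle and at 36.3, 36.6 and 33.3 RPKM with enzalutamide. In siGATA2 cells it was at 26.1, 27.5 and 27.3 RPKM with vehicle and at 26.4, 27.1 and 26.5 RPKM with enzalutamide. The 6 siGATA2 libraries lay below the 6 siControl libraries, and the siGATA2 groups overlapped. SiGATA2 changed GRHL2 by -0.55 ± 0.0367 in vehicle and -0.41 ± 0.0367 under enzalutamide (adjusted p = 3.9e-07 and 4.0e-06).

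Enzalutamide lowered GRHL2 slightly in siControl cells (-0.16 ± 0.0367, adjusted p = 0.0055) and gave -0.02 in siGATA2 cells (interval -0.10 to 0.07). The interaction was 0.14 ± 0.052 (adjusted p = 0.0705), and it was called after the libraries were scaled to one total (0.19, adjusted p = 0.0143).

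**Figure D3:**
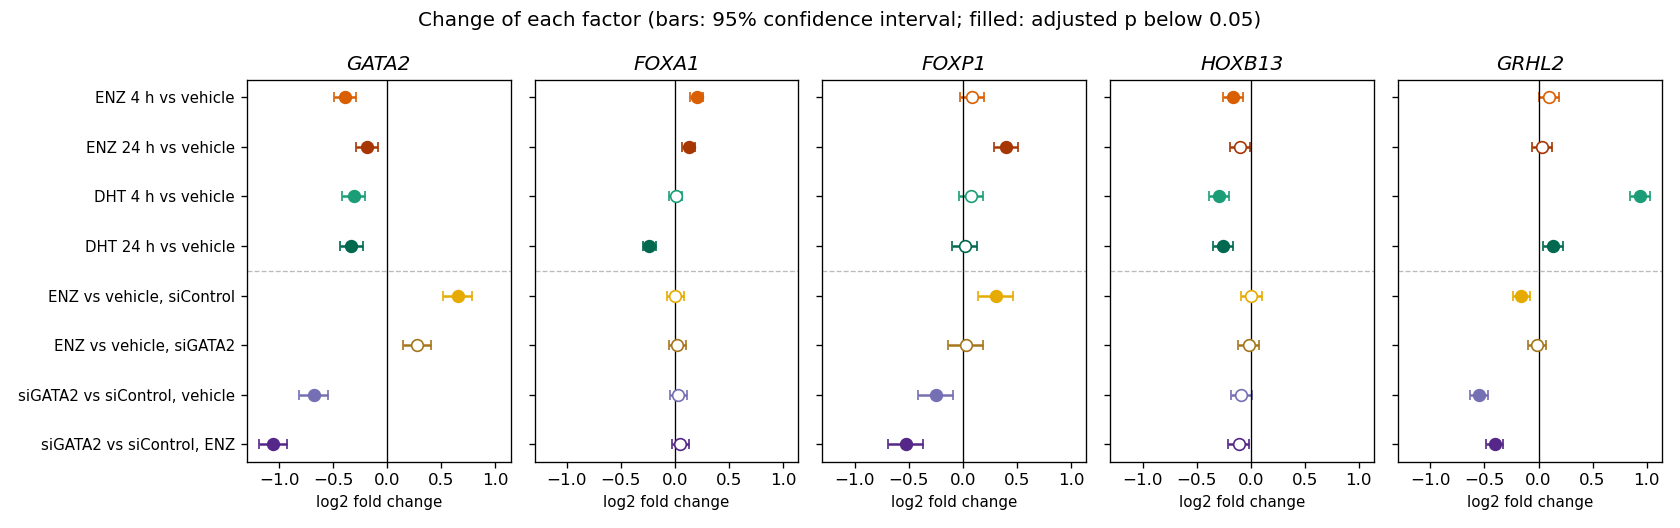
Log2 fold change of the 5 factors tested in both experiments, with 95% confidence intervals; filled points have an adjusted p below 0.05 (edgeR above the dashed line, limma below it, over all genes). GRHL2 after 4 h of DHT (0.94) and GATA2 in siGATA2 cells under enzalutamide (-1.06) lie farthest from 0, and the 8 intervals for FOXA1 and HOXB13 below the line are within -0.21 and 0.13.

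The partners of these factors were read from lists of related genes, whose counts stand against the shares of all genes called: 24.2% higher and 31.4% lower with siGATA2 in vehicle, 26.3% and 28.1% with siGATA2 under enzalutamide, and 26.9% and 23.2% after 24 h of DHT. In siGATA2 against siControl cells with vehicle, 2 of 8 tested GATA family and cofactor genes were higher and 4 lower, with a median log2 difference of -0.19 beside -0.03 over all genes. LMO4, a LIM-only adaptor that joins transcription factor complexes, went from 10.8, 11.3 and 11.2 RPKM to 5.31, 5.37 and 5.09 RPKM (-1.06, adjusted p = 1.1e-09). In siControl cells enzalutamide raised LMO4 to between 14.5 and 15.3 RPKM (0.415, adjusted p = 3.1e-06), in siGATA2 cells it was between 5.35 and 5.43 RPKM, and the interaction was -0.38 (adjusted p = 0.000185).

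Directions among other GATA genes were mixed with siGATA2 in vehicle: GATA6 and GATA5 were higher, and TRPS1 was lower. TRPS1 was at 9.5, 10.4 and 9.9 RPKM with siControl and at 7.4, 7.4 and 8.2 RPKM with siGATA2. GATA6, a GATA factor of endoderm and heart, was at 1.92, 2.01 and 2.23 RPKM with siControl and 2.97, 2.83 and 2.60 RPKM with siGATA2 in vehicle (0.43, adjusted p = 0.000729). GATA5 was higher as well (1.37, adjusted p = 4.4e-06) but at no more than 0.651 RPKM in any library. With DHT, 2 of 5 tested genes of the GATA list fell and 0 rose by edgeR after 4 h. Of all genes, 2.11% were lower and 4.66% higher there. After 24 h of DHT 4 of 5 fell and 0 rose by edgeR (median -0.31 beside 0.00 over all genes). The largest of these falls was that of TRPS1, an atypical GATA repressor (-1.34, adjusted p = 1.8e-09). Enzalutamide raised LMO4 at both times (0.42 and 0.39 on the log2 scale), and LDB1, a partner of LIM-only proteins, was lower after 4 h (-0.22, adjusted p = 0.0112).

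Forkhead and homeodomain genes moved in both directions. With siGATA2 in vehicle, 4 of 9 tested forkhead genes were higher and 3 lower (median 0.10), including FOXK1 at -0.85 (adjusted p = 2.2e-07) and FOXM1, a proliferation factor, at -0.64 (adjusted p = 6.0e-09). FOXO3, a forkhead factor restrained by growth factor signalling, was higher with enzalutamide at 24 h (0.25, adjusted p = 0.000226) and lower with DHT at 24 h (-0.66, adjusted p = 2.0e-08).

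Of 8 tested HOX and TALE homeodomain genes, 1 was higher and 3 lower after 24 h of DHT (median -0.28 beside 0.00 over all genes). HOXC13 was the lowest of them (-1.13, adjusted p = 4.7e-09), and MEIS1, a TALE partner of HOX proteins, was the higher one (0.53, adjusted p = 0.00233). With siGATA2 under enzalutamide 3 of 10 were higher and 6 lower (median -0.35), led by HOXB9 at -1.57 (adjusted p = 4.6e-09).

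The relatives of GRHL2 were read together with epithelial genes. After 4 h of DHT, when GRHL2 was at its highest, 0 of the 12 tested genes of that list rose by edgeR and 1, UBP1, fell (-0.21, adjusted p = 0.00128), where 4.66% of all genes were higher and 2.11% lower (list median -0.08 beside -0.01 over all genes). In siGATA2 cells with vehicle 7 of 13 were higher and 1 lower, against 24.2% of all genes higher and 31.4% lower. The list median was 0.13 beside -0.03 over all genes. GRHL1, the paralog of GRHL2, was at 4.39, 4.28 and 3.82 RPKM with siControl and 6.80, 7.02 and 7.33 RPKM with siGATA2 (0.75, adjusted p = 5.6e-07), opposite in sign to GRHL2. CDH1, which encodes E-cadherin, was higher by 0.27 (adjusted p = 7.7e-06).

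Of 11 coregulators of nuclear receptors, 3 were higher and 6 lower with siGATA2 in vehicle, against 24.2% and 31.4% of all genes. Their median was -0.28 beside -0.03 over all genes, and the coactivator NCOA3 was among the higher ones (0.87, adjusted p = 4.8e-08, limma). KLK3 went from 765 to 816 RPKM to between 21.7 and 26.3 RPKM with siGATA2 in vehicle (-5.04, adjusted p = 1.9e-11).

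**Figure D4:**
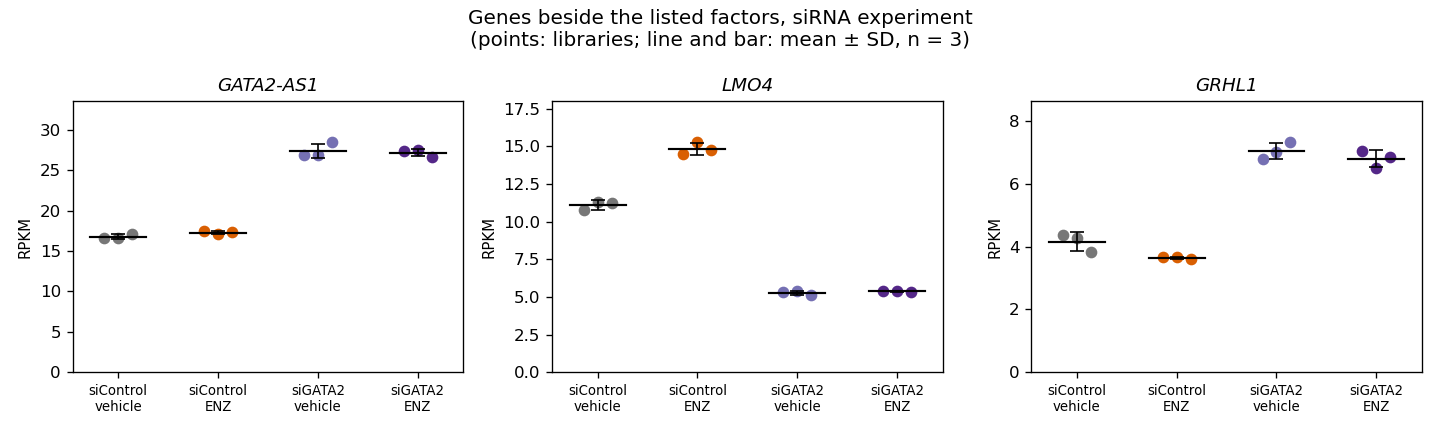
RNA of GATA2-AS1, LMO4 and GRHL1 in the siRNA experiment, in RPKM (vertical axes from 0); points are libraries, lines and bars the mean ± SD (n = 3). GATA2-AS1 and GRHL1 are higher and LMO4 lower in every siGATA2 library than in every siControl library.

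For each factor, the genes with the most similar profile were sought among 11644 genes, by the smaller of its Pearson correlations over the 10 ligand and the 12 siRNA libraries. These values describe likeness only, since libraries of a group share their treatment. For GATA2 they were FAM83G (smaller r 0.90), NAT8L (0.89) and RNF44 (0.89). For FOXA1 they were TOR1AIP1 (0.85), ZNF585B (0.85) and BIRC2 (0.85), and for FOXP1 SEL1L3 (0.94), HLCS (0.94) and WDR41 (0.94). HOXB13 was most like STAP2 (0.83), GPSM1 (0.82) and PITX1 (0.81), and GRHL2 most like TTC21B (0.93), AKAP5 (0.91) and CYP2U1 (0.91).

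No factor was among the 3 most similar genes of another. GATA2 and HOXB13 had the highest correlation of any pair of factors over the 10 ligand libraries (r = 0.83; 0.67 over the 12 siRNA libraries), and GATA2 and FOXP1 the highest over the siRNA libraries (0.91; -0.02 over the ligand libraries). FOXA1 and HOXB13 had r = 0.34 over the ligand and -0.85 over the siRNA libraries. Neither was called in the siRNA experiment, where their group means spanned only 1.04-fold and 1.08-fold. The SDs there reached 4.72% and 4.80% of the mean. The part of scatter between single libraries in this r was not tested.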

How the data were processed

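Poly(A) RNA of LNCaP cells was sequenced after directional library preparation. The authors aligned reads to hg19 with TopHat2 (version 2.0 in the processing notes) and quantified genes with Partek. The deposited ligand tables hold estimated counts per gene (not whole for every gene), which were rounded. The deposited siRNA tables, although named as read counts, hold RPKM values, scaled to transcript length and sequencing depth. The labels give 4 vehicle samples, but 3 of the 4 vehicle columns are named replicate 1 and differ from each other less than from replicate 2 (mean chi-square per gene 1.53 to 1.56 against 3.56 to 3.74), so these were summed and n is 2. Genes missing from a ligand table were set to 0.

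Ligand counts were tested with edgeR 4.0.16 (TMM, filterByExpr, quasi-likelihood test, 1 model of 5 conditions, CPM from TMM-scaled totals). RPKM values were tested as log2(RPKM + 0.1) with limma 3.58.1 and a mean-variance trend, keeping any gene detected in 3 or more libraries, within 1 model of 4 conditions with an interaction. This pseudocount understates changes of low genes. Calls are a Benjamini-Hochberg adjusted p below 0.05 over all tested genes. Intervals are 95% confidence intervals. For edgeR, the SE was derived from the log2 fold change and its test statistic, so the SEs and intervals of the ligand experiment are approximate. P-values set each change against the spread between these samples, pooled over the conditions of a model and moderated across genes. The labels call the samples biological replicates. On simulated counts for the 4 h enzalutamide comparison (15395 genes) 97% of 1.5-fold changes were recovered. For enzalutamide in siControl cells (20337 genes) 88% were. The changes were placed only in genes above a set level, and the spread of the simulated ligand counts was an assumed value. These rates therefore do not cover low genes such as GATA3. They do not cover changes under 1.5-fold either, such as most called changes of the factors in the ligand experiment.

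The members and lists were chosen with earlier results of these data known. Some genes of these lists are not reported here and were left out of the list counts. Named beside the 6 factors were the androgen check genes, the 4 list genes per list and comparison with the largest called change (of which examples are given), and the 3 genes most like each factor. SiRNA target sequences came from the study's supplement and were matched to GENCODE 29 transcripts; other sequences, promoters and proteins were not used here. Alternatives tried were DESeq2 1.42.0, RLE factors, no filter, other pseudocounts and filters, scaling to one total, no trend, a replicate block and leaving out each replicate; the prefix as a term was chosen after seeing the data.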

Additional observations from a re-analysis of the deposited data

Results flagged for a closer look

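Some responses differed between times. GATA2 rose between 4 h and 24 h of enzalutamide (log2 difference 0.21) and FOXP1 did too (0.31), by edgeR's test of the difference itself. The GATA2 call was lost with the prefix as a term and every vehicle column as a sample (0.16, adjusted p = 0.143, edgeR). Its value was 0.13 without enzalutamide 4 h replicate 2 and 0.19 without 24 h replicate 2. Libraries at 4 h and at 24 h of a ligand carry different column-name prefixes, and the vehicle has no treatment time. Between 4 h and 24 h of DHT, GRHL2 changed by -0.80, FOXA1 by -0.24 and GATA2-AS1 by -0.17 (adjusted p = 0.012 for the last).

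The response to enzalutamide also differed between siGATA2 and siControl cells, by limma's interaction term, for GATA2 (-0.38) and KLK3 (1.10, adjusted p = 7.1e-05). For KLK3 the positive interaction stands beside a log2 difference of -1.47 with enzalutamide in siControl cells and of -0.38 in siGATA2 cells, so the difference was smaller in siGATA2 cells.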

How the results depend on the processing

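When the called factors were recounted under each alternative, 208 counts stayed within 1.5 times the reported number and 10 did not. For enzalutamide 24 h against 4 h the number called was 1 instead of 2 with the column-name prefix as a term and every vehicle column as a sample, and 1 to 3 when single libraries were left out. For DHT against enzalutamide at 24 h, leaving out single libraries gave 2 to 5 instead of 4, and for siGATA2 against siControl cells under enzalutamide 3 to 5 instead of 3. With genes under a mean of 1 RPKM left out, 1 factor (GATA2) instead of 0 responded to enzalutamide in siGATA2 cells and 2 instead of 1 had an interaction. The interaction count was also 2 with libraries scaled to one total, 2 with the replicate block and 1 to 2 without single libraries. The cause of these changes was not tested. The filter changed both the number of genes tested and the genes behind the variance trend, and their parts were not separated. No called factor reversed its direction in any of these alternatives.

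Over all tested genes, same-numbered libraries showed little sign of pairing. Their deviations correlated between -0.10 and 0.06 in the ligand and between -0.07 and 0.06 in the siRNA experiment. This check includes low genes, whose scatter can hide pairing, so it cannot exclude it. Over genes of at least 1 RPKM, 1 of the siRNA pairs of groups passed 0.1 throughout (siControl and siGATA2 under enzalutamide, 0.11, 0.24 and 0.15). The block made FOXP1's interaction pass (adjusted p = 0.0334) and changed no other factor's call. Over all genes the block called 29 instead of 84 genes for enzalutamide in siGATA2 cells. The prefix as a term together with every vehicle column as a sample called 1224 instead of 2119 genes for 4 h of enzalutamide, 1628 instead of 3829 for enzalutamide 24 h against 4 h, and 1060 instead of 2453 for DHT against enzalutamide at 4 h, where every vehicle column as a sample alone gave 2938, 4051 and 2607. With 2 libraries a group, some changes of 0.21 or less on the log2 scale were called or not depending on 1 library.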
